A study of Mus musculus with 12 samples.

Results

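The genes described here set or mark the choice between the CD4 and the CD8 T cell lineage. They are the coreceptor genes Cd4, Cd8a and Cd8b1, the transcription factor gene Zbtb7b (ThPOK), the paralogs Runx1, Runx2 and Runx3, and Cbfb, which encodes the partner of the Runx proteins. They were taken by symbol from the gene tables, and they are 8 of 23278 features. All 8 had a value of their own in each of the 12 libraries. On GRCm38.p6, the mm10 assembly, RefSeq places Cd8b1 (71322788 to 71337492), Cd8a (71373427 to 71379171) and Cd4 (124864693 to 124888247) on chromosome 6 and Zbtb7b on chromosome 3 (89377644 to 89393673). It places Runx1 on chromosome 16 (92601466 to 92826074), Runx2 on chromosome 17 (44495987 to 44814797), Runx3 on chromosome 4 (135120645 to 135177990) and Cbfb on chromosome 8 (105170674 to 105217989).

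RNA was sequenced from splenic CD4 T cells of C57BL/6 mice, sorted into TFH (T follicular helper) cells, which carry CXCR5 and PD-1, and non-TFH cells, which carry neither. Every mouse carried floxed alleles of the transcription factor gene Ets1 (Ets1 fl/fl). The animals called WT here had no further allele named, and those labelled KO also carried the CD4-cre transgene, in which Cre is driven by regulatory sequence of the Cd4 gene. The 4 groups (each cell type in each genotype) held 3 libraries each. Age and treatment are not stated in the labels, which also name no batch or date. The same replicate numbers recur in every group, with no word on whether a shared number marks the same mouse. The labels do not tell whether the libraries of a group are from separate mice, so a p-value measures the spread between these libraries, which may be technical.

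T cells leave the thymus with either the CD4 or the CD8 coreceptor. CD4 binds MHC class II, and CD8 binds MHC class I either as a CD8αβ heterodimer or as a CD8αα homodimer, while CD8β needs CD8α to reach the cell surface. In the thymus ThPOK drives the CD4 fate and keeps Runx3 low, whereas Runx3 with CBFβ silences Cd4 and Zbtb7b and drives the CD8 fate. Runx1 silences Cd4 at the earlier double-negative stage.

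Values are FPKM, fragments corrected for transcript length and library depth, scaled between libraries by their median ratio, and means are given with their SD over 3 libraries. Each log2 change comes from limma on log2(FPKM + 1) over 11112 features in all 12 libraries, with its SE. A gene is said to rise or fall where the p-value adjusted by Benjamini-Hochberg over all those features is under 0.05. On this scale a change of a gene at low level is understated. Estimated depths were 11.74 to 15.4 M fragments. Ets1 itself stood at 407 ± 5.16 in WT and 400 ± 17.9 in KO non-TFH cells, and at 196 ± 22.9 in WT and 252.5 ± 26.1 in KO TFH cells. Ets1 rose in KO TFH cells by 0.37 ± 0.10 (adjusted p 0.015, limma), and in KO non-TFH cells the change was -0.03 ± 0.10 (adjusted p 0.91, limma). It was lower in TFH cells by -1.06 ± 0.10 in WT (adjusted p 1.8e-06, limma) and -0.67 ± 0.10 in KO mice (adjusted p 8.6e-05, limma). Gene-level FPKM includes exons outside the floxed segment and so does not check the deletion. Unscaled, the median feature was higher in TFH cells, by 0.36 on the log2 scale for WT and by 0.26 for KO, and changes between cell types are relative to that median.

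Cd4, the coreceptor gene of the sorted lineage, stood at 167 FPKM or more in every library. In WT non-TFH cells it stood at 259.9, 275.4 and 254.4 FPKM (263 ± 10.9), and in KO non-TFH cells at 323.2, 419.9 and 328.9 (357 ± 54.3). In WT TFH cells it stood at 291.6, 261.1 and 275.5 (276 ± 15.3), and in KO TFH cells at 167, 175 and 272.9 (205 ± 58.9). All 3 KO non-TFH libraries were above all 3 WT non-TFH libraries, while KO TFH replicate 3 lay within the range of the WT TFH libraries and replicates 1 and 2 lay below it. Neither difference from WT passed the test. The log2 change was 0.43 ± 0.16 in non-TFH cells (adjusted p 0.093, limma) and -0.46 ± 0.16 in TFH cells (adjusted p 0.052, limma). The TFH value passed without KO TFH replicate 3, at -0.69 with an adjusted p of 0.0016 from limma, and the non-TFH value also passed without that library, with an adjusted p of 0.012.

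The change of Cd4 in TFH cells minus that in non-TFH cells was -0.89 ± 0.23 (adjusted p 0.021, limma). The call was lost in 4 of 23 alternatives, with array weights (adjusted p 0.052), with a replicate block within genotype (0.05), and without KO non-TFH replicate 2 or KO TFH replicate 2 (0.051 each). Within KO mice Cd4 was lower in the TFH cells, by -0.82 ± 0.16 (adjusted p 0.00084, limma) with no overlap of the libraries. Within WT mice the difference was 0.07 ± 0.16 (adjusted p 0.73, limma), but it passed in opposite directions under other scalings, at 0.44 without scaling (adjusted p 0.035) and -0.44 with quantile normalization (adjusted p 0.017).

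The Cd4 entry itself differed between the genotypes in its extent. Cd4 is read toward lower coordinates, so that its start is at 124888247. In the 6 WT libraries the deposited entry ended within 0.04 kb of that start. In the 6 KO libraries it ran on to between 124900667 and 124900977. That is 12.42, 12.44 and 12.42 kb upstream of the start in KO non-TFH replicates 1 to 3, and 12.73, 12.45 and 12.42 kb in KO TFH replicates 1 to 3. The length of the entry was therefore 36.0 to 36.3 kb in KO and 23.5 to 23.6 kb in WT libraries. Among 19667 genes with an entry in all 12 libraries, 1 gene, Cd4, extended over 5000 bases past its annotated end in every KO and no WT library, and 0 did the reverse. The limit of 5000 bases was chosen after the values were seen.

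Close to where most KO entries ended, the 3 WT TFH libraries each listed an unnamed locus. It ran from 124900698 to 124901124 at 6.42 deposited FPKM in replicate 1, from 124900699 to 124901062 at 4.75 in replicate 2, and from 124900705 to 124901017 at 7.75 in replicate 3. In 5 of the 6 KO libraries the Cd4 entry ended before these loci begin, at 124900696 or lower, and in KO TFH replicate 1 it overlapped them. WT TFH replicate 3 listed a second locus, from 124901199 to 124901920 at 1.74 deposited FPKM. No WT non-TFH library listed a locus between Cd4 and Lag3. WT TFH libraries listed the most unnamed entries in all, 12338 to 25171. WT non-TFH libraries listed 7942 to 8549 and KO libraries 6803 to 10233. The KO animals are those that carry Cd4 regulatory sequence in a transgene, and reads of the transgene and of the resident Cd4 gene cannot be told apart in gene-level values. The source of the longer entry was not tested, nor was its part in the FPKM of Cd4.

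**Figure D1:**
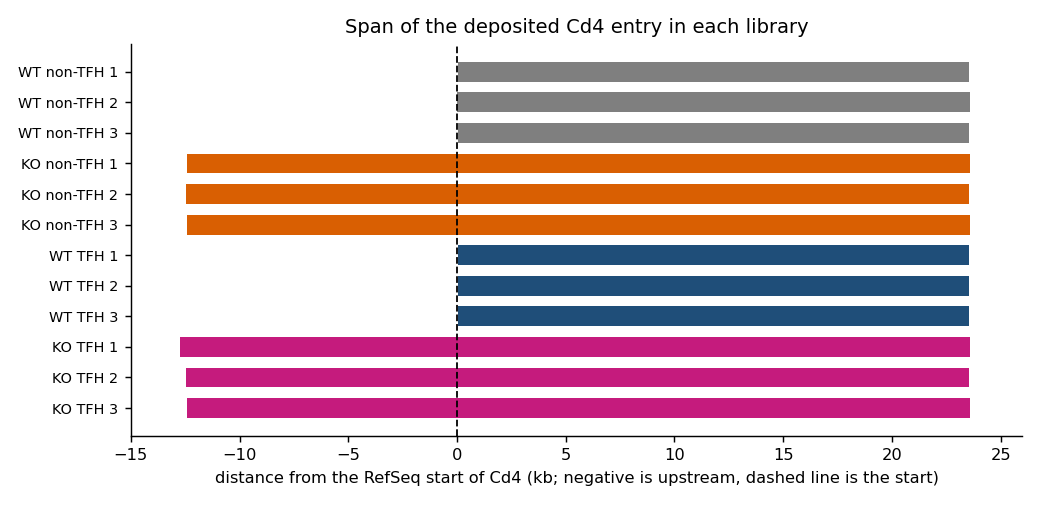
Extent of the deposited Cd4 entry in each of the 12 libraries, in kb from the annotated start of Cd4, with upstream to the left. Bars are the entries. In the 6 KO libraries the entry reaches 12.42 to 12.73 kb upstream, and in the 6 WT libraries it ends at the start.

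Lag3, which encodes an inhibitory receptor that binds MHC class II, is the tested gene next to Cd4 on the upstream side, 16.1 kb away. It stood at 1.44, 0.909 and 1.1 FPKM in WT non-TFH, 3.78, 3.25 and 3.91 in KO non-TFH, 6.84, 5.16 and 4.68 in WT TFH and 2.01, 1.21 and 1.45 in KO TFH libraries. No library of KO overlapped with WT of the same cell type. Lag3 rose in KO non-TFH cells by 1.12 ± 0.19 (adjusted p 0.0012, limma) and fell in KO TFH cells by -1.36 ± 0.19 (adjusted p 0.00026, limma). The difference between both changes was -2.47 ± 0.27 (adjusted p 9.1e-05, limma). Cdca3, a cell cycle gene 31.0 kb to the other side, changed by 0.97 ± 0.23 in KO TFH cells (adjusted p 0.0073, limma) and by 0.49 ± 0.23 in KO non-TFH cells (adjusted p 0.17, limma).

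Cd8b1, which encodes the CD8β chain, was higher in the KO libraries of both cell types. In WT non-TFH cells it stood at 14.59, 10.81 and 9.86 FPKM (11.8 ± 2.50), and in KO non-TFH cells at 101.1, 106.4 and 95.67 (101 ± 5.39). In WT TFH cells it stood at 10.3, 8.82 and 6.10 (8.41 ± 2.13), and in KO TFH cells at 33.88, 41.53 and 44.12 (39.8 ± 5.33). The KO and WT libraries were widely separated in each cell type, and the ratio of the means was 8.6 in non-TFH and 4.74 in TFH cells. Cd8b1 rose by 3.02 ± 0.18 (log2) in non-TFH cells (adjusted p 4.7e-07, limma) and by 2.14 ± 0.18 in TFH cells (adjusted p 8.5e-06, limma). Both calls held in every alternative run. The rise was smaller in TFH cells by -0.88 ± 0.26 (adjusted p 0.038, limma), a call that was lost in 12 of 23 alternatives, whose adjusted p ran from 0.0047 to 0.089.

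Between the cell types, Cd8b1 was lower in the TFH cells of KO mice, by -1.33 ± 0.18 (adjusted p 5e-05, limma). In WT mice the difference was -0.45 ± 0.18 (adjusted p 0.049, limma) with overlapping libraries, and the call was lost in 17 of 24 alternatives. The deposited confidence bounds of Cd8b1 were as wide as those of a count of 22.2 fragments in WT non-TFH replicate 1. For KO non-TFH replicate 1 this equivalent was 58.4, and in the other 10 libraries it was 114.0 to 931.4. KO non-TFH replicates 1 and 2 had 58.4 and 931.4 at 92.84 and 98.68 deposited FPKM. The equivalent thus gives the relative width of the bounds and does not count reads.

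Cd8a, the gene of the CD8α chain, lies 36.0 kb from Cd8b1 on the same chromosome and stayed at low level. It stood at 0.044, 0.045 and 0.171 FPKM in WT non-TFH and at 0.178, 0.308 and 0.288 in KO non-TFH libraries. In TFH cells its values were 2.003, 1.44 and 1.43 for WT and 4.11, 2.85 and 2.70 for KO. By the width of their bounds the WT non-TFH values had the equivalent of 1.0, 1.0 and 4.9 fragments, and the KO TFH values of 118.1 to 172.7. Cd8a passed the filter on low values (1 FPKM in at least 3 libraries) through the TFH libraries alone, so its difference between cell types was bound to be seen. That difference was 1.27 ± 0.18 in WT and 1.73 ± 0.18 in KO mice. In TFH cells Cd8a rose from 1.63 ± 0.328 to 3.22 ± 0.773 with KO, by 0.68 ± 0.18 (adjusted p 0.014, limma). The call was lost with a pseudocount of 0.1 (adjusted p 0.096) and with the 2 TFH groups fitted alone (adjusted p 0.11). In non-TFH cells the change was 0.21 ± 0.18 (adjusted p 0.49, limma), with both groups under 1 FPKM.

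The 2 chains of CD8 were therefore far from equal in level. As log2((Cd8b1 + 1)/(Cd8a + 1)), the ratio was 3.54 ± 0.345 in WT non-TFH, 6.34 ± 0.105 in KO non-TFH, 1.82 ± 0.245 in WT TFH and 3.28 ± 0.448 in KO TFH cells. It was higher with KO by 2.81 in non-TFH and by 1.46 in TFH cells, with no overlap of the libraries. Both differences had an exact two-sided permutation p of 0.1, below which groups of 3 libraries cannot go. Cd8a was at 0.308 FPKM or less in the non-TFH libraries. The added 1 thus sets most of the lower term there, and the ratio mainly follows Cd8b1. With a pseudocount of 0.1 the non-TFH difference was 2.13. In a bulk sample, a change in the share of cells that carry a transcript and a change in the RNA per cell cannot be told apart.

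Cells of other types that carry CD8 or CD4 were followed by their markers. CD8 T cells carry both chains, and Cd8a was at 0.178 to 0.308 FPKM in the KO non-TFH libraries in which Cd8b1 was at 95.67 to 106.4. Of 5 markers of type 1 dendritic cells, which carry CD8α, Xcr1, Clec9a and Tlr3 were under 1 FPKM in every group. The summed level of the 5 was 0.56 to 1.42 in WT non-TFH, 0.516 to 1.24 in KO non-TFH, 9.95 to 17.0 in WT TFH and 1.51 to 3.4 in KO TFH cells. The part of either cell type in the values of Cd8a and Cd8b1 was not tested. The 6 measured T cell markers summed to between 1590 and 3110 in all libraries. The 4 markers of the TFH gate (Cxcr5, Pdcd1, Bcl6, Il21) summed to 593 to 959 in TFH and to 8.15 to 20.3 in non-TFH libraries.

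**Figure D2:**
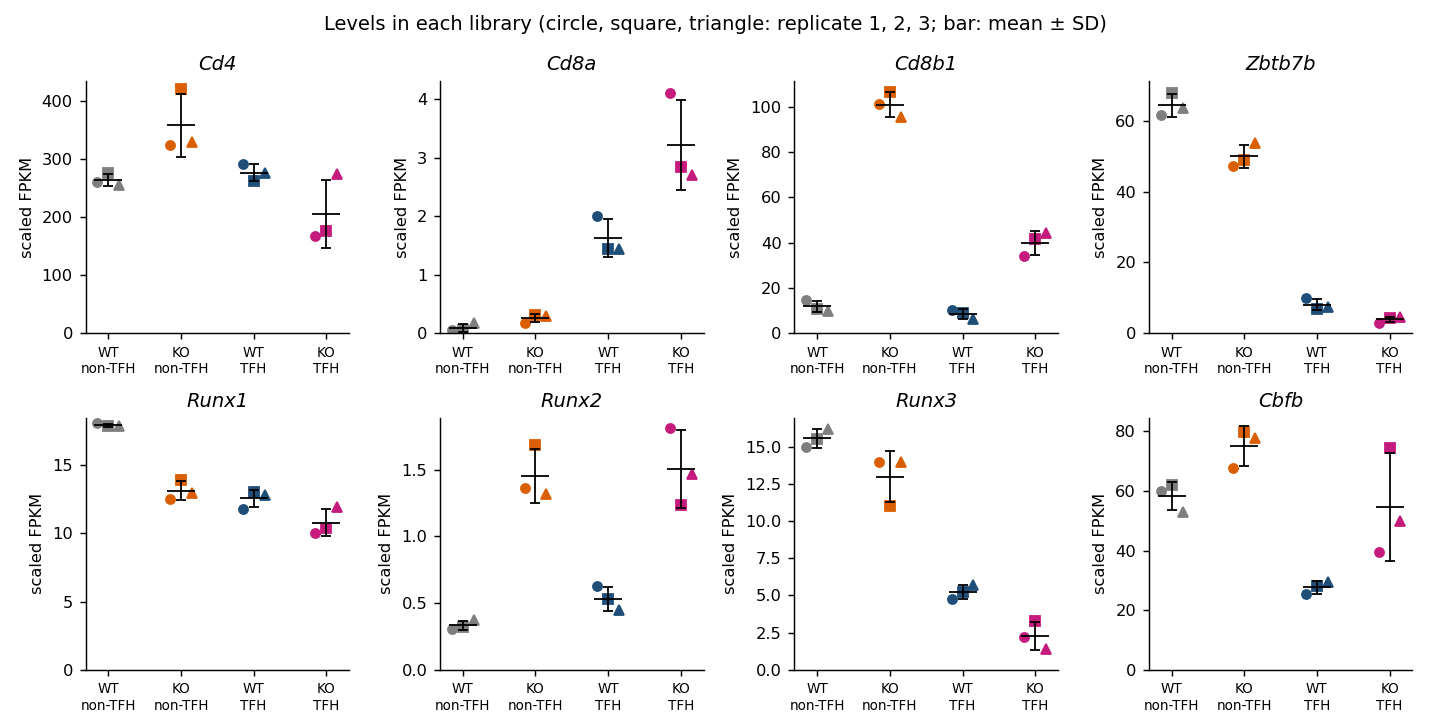
Scaled FPKM of the 8 genes in each library (circle, square and triangle for replicates 1, 2 and 3; linear axes, each with its own scale), with the mean and SD of each group of 3. Cd8b1 is at 9.86 to 14.59 in WT non-TFH and at 95.67 to 106.4 in KO non-TFH libraries, and Zbtb7b is at 47.3 or more in every non-TFH and at 9.87 or less in every TFH library.

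Zbtb7b, the gene of ThPOK, separated the cell types more widely than it separated the genotypes. In WT non-TFH cells it stood at 61.7, 68.02 and 63.7 FPKM (64.5 ± 3.23), and in KO non-TFH cells at 47.3, 48.83 and 53.72 (49.95 ± 3.36). In WT TFH cells it stood at 9.87, 6.78 and 7.40 (8.02 ± 1.64), and in KO TFH cells at 2.91, 4.16 and 4.47 (3.84 ± 0.824). The 4 groups did not overlap, and in each cell type WT stood above KO. The mean was 8.04 times lower in TFH cells for WT mice and 13.0 times lower for KO mice. These were log2 changes of -2.87 ± 0.16 (adjusted p 2.2e-08, limma) and -3.41 ± 0.16 (adjusted p 6.4e-09, limma).

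With KO, Zbtb7b fell in TFH cells by -0.90 ± 0.16 (adjusted p 0.0012, limma). In non-TFH cells the change was -0.36 ± 0.16 (adjusted p 0.14, limma) and did not pass. It passed with the non-TFH groups fitted alone and with array weights, each at an adjusted p of 0.011. The difference between both changes was -0.53 ± 0.22 (adjusted p 0.13, limma).

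The Runx genes each have a distal promoter, and the sequences around the distal starts are shown because they share a run of letters. RefSeq promoter windows (GRCm38.p6), from 250 bases before to 50 bases after the start, were searched, and 6 of the 8 genes had a window in the table. An 18-base run, in capitals, occurs in the distal windows of Runx1 (chr16:92826025-92826324, minus strand), Runx2 (chr17:44814578-44814877, minus strand) and Runx3 (chr4:135120395-135120694, plus strand).
Runx1: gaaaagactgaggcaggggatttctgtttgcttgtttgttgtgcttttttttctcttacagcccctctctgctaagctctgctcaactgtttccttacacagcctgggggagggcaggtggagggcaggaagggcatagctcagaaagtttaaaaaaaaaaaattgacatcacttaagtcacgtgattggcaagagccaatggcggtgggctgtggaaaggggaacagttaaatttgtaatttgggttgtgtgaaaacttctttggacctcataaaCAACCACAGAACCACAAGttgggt
Runx2: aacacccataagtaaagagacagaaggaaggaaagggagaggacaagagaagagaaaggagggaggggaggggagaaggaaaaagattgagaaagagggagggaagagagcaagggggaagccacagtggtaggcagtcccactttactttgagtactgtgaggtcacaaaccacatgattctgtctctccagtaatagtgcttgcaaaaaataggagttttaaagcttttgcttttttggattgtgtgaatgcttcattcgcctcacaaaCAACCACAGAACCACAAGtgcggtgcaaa
Runx3: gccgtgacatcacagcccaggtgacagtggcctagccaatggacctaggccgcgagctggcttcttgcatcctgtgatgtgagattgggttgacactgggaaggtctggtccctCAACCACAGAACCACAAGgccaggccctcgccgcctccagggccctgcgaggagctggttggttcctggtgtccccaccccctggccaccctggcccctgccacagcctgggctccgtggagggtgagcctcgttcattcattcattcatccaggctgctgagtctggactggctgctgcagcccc

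The run lies at +27 to +44 from the start in Runx1, at +22 to +39 in Runx2 and at -136 to -119 in Runx3. It was chosen as the longest stretch that these 3 windows share, so its presence in them was fixed in advance. It was found in 4 of 32851 windows (0.0122%), the fourth being that of Gm16225, which overlaps the Runx3 window on the other strand. The run holds the Runx motif letters ACCACA 2 times. Counted on either strand (TGTGGT on the other), ACCACA occurred in 16.8% of all windows and 2 or more times in 1.81%. It occurred 2 times in the distal window of Runx1, 3 times in that of Runx2 and 2 times in that of Runx3. One window of Zbtb7b inside the gene held 1 match and the other held 0, as did those of Cd8a and Cbfb and the proximal windows of Runx1 and Runx3. A match is a description of letters and not of binding.

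The transcripts of the 3 paralogs differed in level and in their changes. Runx1, needed for early blood and T cell development, stood at 18.07, 17.87 and 17.9 FPKM in WT non-TFH (17.95 ± 0.109), at 12.51, 13.89 and 12.96 in KO non-TFH (13.1 ± 0.701), at 11.82, 13.05 and 12.82 in WT TFH (12.6 ± 0.653) and at 10.06, 10.36 and 11.94 in KO TFH cells (10.8 ± 1.01). The WT non-TFH libraries were the highest. Runx1 fell with KO in non-TFH cells, at 13.1 against 17.95 FPKM and -0.42 ± 0.11 on the log2 scale (adjusted p 0.015, limma). That call was lost in 4 of 23 alternatives, namely without WT non-TFH replicate 1 or 2 or without KO non-TFH replicate 1 or 3, and adjusted p ran from 0.00046 to 0.065 over all 23. In TFH cells the change was -0.20 ± 0.11 (adjusted p 0.18, limma) with overlapping libraries. Runx1 was lower in the TFH cells of WT mice by -0.48 ± 0.11 (adjusted p 0.0018, limma), and without scaling by -0.13 (adjusted p 0.29). In KO mice the difference was -0.26 ± 0.11 (adjusted p 0.048, limma). Its call was kept in only 10 of 24 alternatives, and without scaling the difference came to 0.02 (adjusted p 0.91).

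Runx2, best known from bone formation, was the lowest of the paralogs in every group. It stood at 0.304, 0.320 and 0.372 FPKM in WT non-TFH (0.332 ± 0.0353), at 1.36, 1.68 and 1.31 in KO non-TFH (1.45 ± 0.2), at 0.6245, 0.528 and 0.446 in WT TFH (0.533 ± 0.0892) and at 1.81, 1.23 and 1.47 in KO TFH cells (1.51 ± 0.292). All 6 KO libraries were above 1 FPKM and all 6 WT libraries below it. Runx2 passed the filter through the KO libraries alone, so that a difference between genotypes was bound to be seen. The changes were 0.88 ± 0.16 in non-TFH cells (adjusted p 0.0019, limma) and 0.70 ± 0.16 in TFH cells (adjusted p 0.0056, limma), the latter lost with the TFH groups fitted alone (adjusted p 0.063). By the width of their bounds the values had the equivalent of 10.6 to 15.4 fragments in WT non-TFH and 88.4 to 116.3 in KO non-TFH libraries. Between cell types the change was 0.20 ± 0.16 in WT (adjusted p 0.28, limma) and 0.03 ± 0.16 in KO mice (adjusted p 0.89, limma). Plasmacytoid dendritic cells also carry Runx2, and Siglech, a defining marker of theirs, averaged 0.0618 FPKM in WT non-TFH, 0.185 in KO non-TFH, 15.1 in WT TFH and 5.02 in KO TFH cells. Ccr9, also listed for these cells and expressed by T cells too, averaged 0, 102.6, 4.62 and 25.1 FPKM in the same order. Of the 5 listed markers 1 (Ccr9) rose with KO in each cell type, while 3 fell in TFH and 0 in non-TFH cells. Of all tested features 15.7% rose and 15% fell in TFH cells, and 11.8% rose and 8.56% fell in non-TFH cells. The part of such cells in the values of Runx2 was not tested.

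Runx3, the paralog tied to the CD8 lineage, was lowest in the TFH libraries. It stood at 14.98, 15.51 and 16.21 FPKM in WT non-TFH (15.6 ± 0.620), at 13.96, 11.01 and 13.99 in KO non-TFH (12.99 ± 1.71), at 4.75, 5.25 and 5.67 in WT TFH (5.22 ± 0.462) and at 2.22, 3.27 and 1.37 in KO TFH cells (2.29 ± 0.949). The 4 groups did not overlap. Runx3 was lower in TFH cells by -1.41 ± 0.20 in WT (adjusted p 5e-05, limma) and by -2.12 ± 0.20 in KO mice (adjusted p 1.7e-06, limma). With KO it fell in TFH cells by -0.96 ± 0.20 (adjusted p 0.0032, limma). In non-TFH cells the change was -0.25 ± 0.20 (adjusted p 0.45, limma), and the difference between both changes was -0.71 ± 0.28 (adjusted p 0.11, limma).

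Cbfb encodes CBFβ, which binds no DNA and stabilizes the Runx proteins on it. Its transcript stood at 60.11, 62 and 52.93 FPKM in WT non-TFH (58.4 ± 4.78), at 67.55, 79.93 and 77.89 in KO non-TFH (75.1 ± 6.64), at 25.33, 28.24 and 29.32 in WT TFH (27.6 ± 2.07) and at 39.56, 74.51 and 49.77 in KO TFH cells (54.6 ± 18.0). KO TFH replicate 2 reached the KO non-TFH range. Cbfb rose in KO TFH cells by 0.91 ± 0.18 (adjusted p 0.003, limma). In KO non-TFH cells the change was 0.36 ± 0.18 (adjusted p 0.22, limma), and it passed with the non-TFH groups fitted alone (adjusted p 0.031) and with array weights (adjusted p 0.027). Cbfb was lower in TFH cells, by -1.05 ± 0.18 in WT (adjusted p 0.00031, limma) and by -0.50 ± 0.18 in KO mice (adjusted p 0.031, limma). The KO value was lost in 7 of 24 alternatives.

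Summed over the 3 Runx genes, the level was 33.8 ± 0.579 FPKM in WT non-TFH, 27.6 ± 0.875 in KO non-TFH, 18.3 ± 0.975 in WT TFH and 14.6 ± 0.422 in KO TFH cells. Cbfb FPKM divided by that sum was 1.73 ± 0.166, 2.73 ± 0.291, 1.51 ± 0.0382 and 3.73 ± 1.15 in the same order. The partner thus stood higher relative to the Runx transcripts in the KO groups, a difference that was not tested. The makeup of the sum differed by group as well. Runx3 made up 46.0 ± 1.06% of it in WT non-TFH and 47.0 ± 4.86% in KO non-TFH cells, a difference of 1.04 percentage points (exact two-sided permutation p 0.9). It made up 28.5 ± 1.28% in WT TFH and 15.7 ± 6.35% in KO TFH cells, a difference of -12.8 percentage points without overlap (exact two-sided permutation p 0.1, the smallest possible). Runx1 held 53.0% in WT non-TFH, 47.7% in KO non-TFH, 68.6% in WT TFH and 74.0% in KO TFH cells, and Runx2 held 0.98%, 5.29%, 2.93% and 10.4%.

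Runx3 and Zbtb7b, which repress each other in the thymus, both fell in KO TFH cells. The balance log2((Runx3 + 1)/(Zbtb7b + 1)) was -1.98 ± 0.0773 in WT non-TFH, -1.87 ± 0.181 in KO non-TFH, -0.522 ± 0.343 in WT TFH and -0.586 ± 0.535 in KO TFH cells. It differed between genotypes by -0.0636 in TFH cells (exact two-sided permutation p 1.0) and by 0.112 in non-TFH cells (exact two-sided permutation p 0.4). Between cell types it differed by 1.46 in WT and 1.28 in KO mice, with no overlap and an exact two-sided permutation p of 0.1 each. A p above the threshold does not show that the balance was the same with KO.

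**Figure D3:**
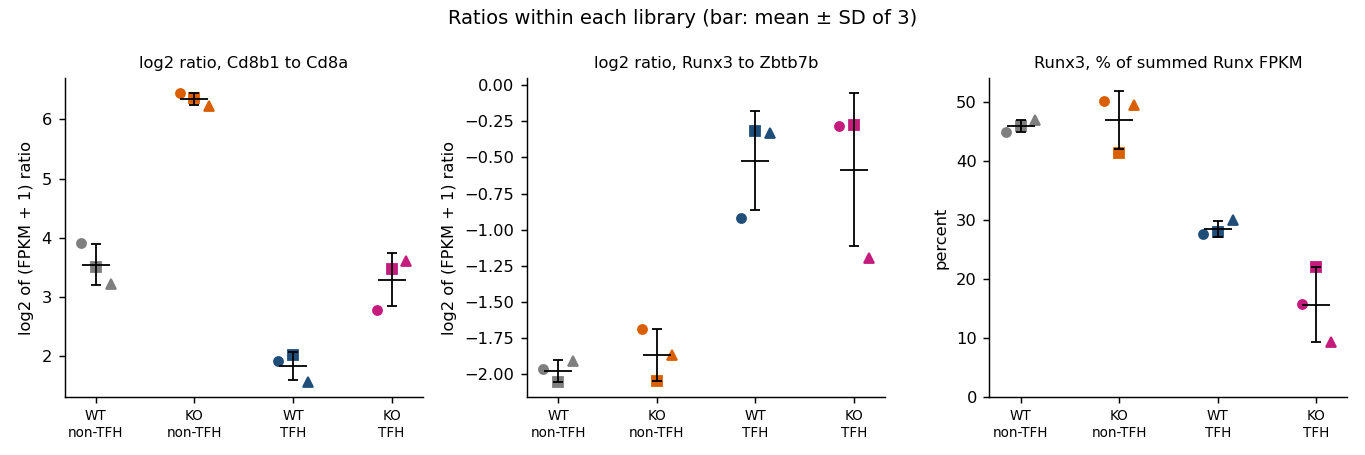
Balance of transcripts in each library (points) with the mean and SD of each group: log2 ratio of Cd8b1 to Cd8a, log2 ratio of Runx3 to Zbtb7b, and the share of Runx3 in the summed Runx FPKM. The mean Runx3 share is 28.5% in WT TFH and 15.7% in KO TFH cells, while the mean Runx3 to Zbtb7b ratio is -0.522 and -0.586 in those groups.

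Counted over the 8 genes, 4 rose with KO in TFH cells (Cd8a, Cd8b1, Runx2, Cbfb) and 2 fell (Zbtb7b, Runx3), where 15.7% of all tested features rose and 15% fell (30.7% in all). The rise of Runx2 in either cell type was fixed by the filter, which it passed through the KO libraries alone, so it adds nothing to these counts. The median log2 change of the 8 was 0.235, and that of all features was 0.0376. In non-TFH cells 2 rose (Cd8b1, Runx2) and 1 fell (Runx1), where 11.8% of all features rose and 8.56% fell (20.3% in all). The medians were 0.285 and 0.0328. Between cell types, 1 was higher in TFH cells of WT mice (Cd8a) and 5 were lower (Cd8b1, Runx1, Runx3, Cbfb, Zbtb7b), where 35.3% of all features were higher and 32.1% lower (67.4% in all). The filter likewise fixed the direction of Cd8a, the 1 higher gene, in either genotype. In KO mice 1 was higher (Cd8a) and 6 were lower, Cd4 included, where 33.5% were higher and 33.6% lower (67.1% in all). The medians were -0.466 in WT and -0.661 in KO mice, beside 0.052 and 0.0203 for all features. The change with KO differed between the cell types in 2 of the 8, Cd4 and Cd8b1, both lower in TFH cells, where 6.88% of all features had a higher and 10.6% a lower change there (17.4% in all). The comparisons of genotypes and of cell types use the same libraries, so their values are not independent of each other.

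**Figure D4:**
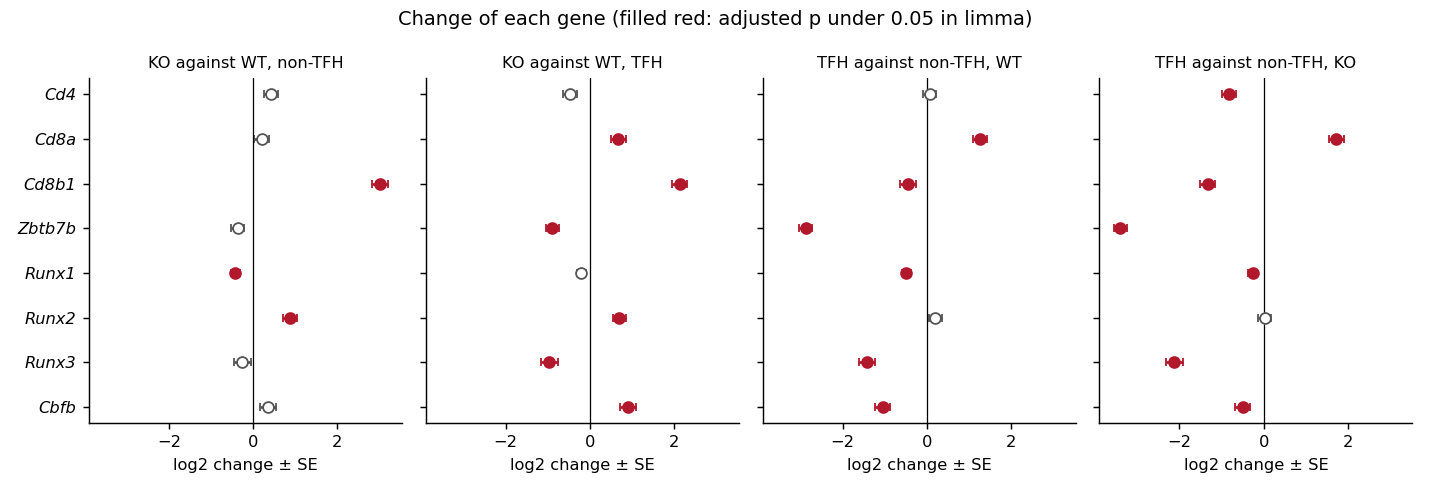
log2 changes of the 8 genes on the log2(FPKM + 1) scale with SE, for both comparisons of genotypes (1 in each cell type) and both comparisons of cell types (1 in each genotype). Cd8b1 has the largest change with KO among the 8 genes in both cell types, and Zbtb7b the largest fall from non-TFH to TFH cells.

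Markers of other cells moved with the TFH comparisons. Their counts stand beside the shares of all tested features, of which 15.7% rose and 15% fell with KO in TFH cells. In non-TFH cells 11.8% rose and 8.56% fell. The 9 measured macrophage markers summed to 13.1 to 22.4 FPKM in WT non-TFH, 27.0 to 38.8 in KO non-TFH, 1150 to 2070 in WT TFH and 186 to 249 in KO TFH libraries, and 9 of 9 fell with KO in TFH cells, while 4 of 9 (Csf1r, C1qa, C1qb and C1qc) rose with KO in non-TFH cells. The 7 measured B cell markers summed to 1.19 to 2.8, 2.1 to 2.51, 60.2 to 70.4 and 34.4 to 39.4 in the same order, and 2 of the 5 tested fell. Type 2 dendritic cell markers summed to 1.23 to 3.46, 5.01 to 7.19, 38.7 to 52.9 and 7.86 to 16.6, and 2 of 5 fell. The 5 plasmacytoid dendritic cell markers summed to 87.8 to 98.4, 190 to 247, 82.1 to 99.1 and 71.1 to 97.1, mostly through Bst2 and Ccr9, which T cells also express. Of these 5, 1 (Ccr9) rose and 3 fell with KO in TFH cells, and 1 (Ccr9) rose and 0 fell in non-TFH cells. Of the 3 measured NK markers Tyrobp, which macrophages also express, made up most of the sum and lacked a value in 1 WT non-TFH and 1 WT TFH library. In the libraries with all 3 the sums were 8.21 to 14.7 in WT non-TFH, 19.6 to 25.6 in KO non-TFH, 205 to 333 in WT TFH and 50.7 to 73.4 in KO TFH cells, with Tyrobp at 75.9% or more of each. With KO in TFH cells 2 of the 3 fell, Tyrobp by -2.02 ± 0.28 and Klre1 by -1.25 ± 0.38. Ncr1 rose by 1.04 ± 0.24, from 0.13 to 1.37 FPKM. It passed the filter through the KO libraries alone, so that its rise was bound to be seen. In non-TFH cells 0 of the 3 were called. The 2 measured γδ and NKT markers summed to at most 1.06. The summed macrophage level was thus lower with KO in TFH cells, higher with KO in non-TFH cells, and higher in TFH cells of either genotype than in their non-TFH counterparts. The part of such cells in the values of the 8 genes and of Lag3 was not tested.

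Other regulators of the lineage choice were followed as a list. Of 23 listed transcription factor and chromatin genes 20 were tested, and 6 rose and 0 fell in KO TFH cells (median 0.349), beside 15.7% and 15% of all features. The largest rises were those of Tcf12, which encodes the E protein HEB, at 1.18 ± 0.10 (adjusted p 7.6e-06, limma), and Ikzf1 (Ikaros), at 1.17 ± 0.13 (adjusted p 6.2e-05, limma). In KO non-TFH cells 5 rose and 1 fell (median 0.113), beside 11.8% and 8.56% of all features. Myb, which acts in thymocytes upstream of the CD4 fate, rose by 1.88 ± 0.24 (adjusted p 0.00018, limma), Tox by 0.94 ± 0.13 (adjusted p 0.00029, limma), and the remodeller gene Chd4 fell by -0.51 ± 0.15 (adjusted p 0.038, limma). In TFH cells 13 of the 20 were lower and 2 higher in WT mice (all features 32.1% and 35.3%), and 12 were lower and 2 higher in KO mice (all features 33.6% and 33.5%). Satb1, a chromatin organizer, was lower by -4.34 ± 0.27 in WT and -4.50 ± 0.27 in KO mice, and Chd4 by -2.90 and -2.20, whereas Tox was higher by 1.96 and 1.38 and Hdac1 by 0.71 and 1.02. The change with KO differed between cell types for 5 of the 20 (17.4% of all features), among them Ikzf1 at 1.10 ± 0.19 and Myb at -1.26 ± 0.35.

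Of 18 genes for proteins that bind or modify Runx proteins, 17 were tested. In KO TFH cells 4 rose and 1 fell (median 0.277), where 15.7% and 15% of all features did, with Cdk6 at 0.95 ± 0.23, Smad3 at 0.92 ± 0.16 and the acetyltransferase gene Kat6a at -0.57 ± 0.14. In KO non-TFH cells 3 rose and 1 fell (median 0.149), where 11.8% and 8.56% of all features did, with the kinase gene Hipk2 at 1.76 ± 0.18, the corepressor gene Tle2 at 1.16 ± 0.19 and the acetyltransferase gene Crebbp at -0.39 ± 0.11. Tle2 averaged 2.3 FPKM there, 0.48 in WT non-TFH, 0.0642 in WT TFH and 0.258 in KO TFH cells. It passed the filter through the KO non-TFH libraries alone, so that its rise was bound to be seen and adds nothing to this count. In TFH against non-TFH cells 13 were lower and 1 higher in WT mice, and 11 were lower and 4 higher in KO mice. Of all features 32.1% were lower and 35.3% higher in WT mice, and 33.6% and 33.5% in KO mice. The corepressor gene Tle3 was lower by -2.10 ± 0.16 in WT mice, and Elf4 by -2.05 in WT and -2.28 in KO mice. The change with KO differed in 3 of the 17 (17.4% of all features), at 0.61 for Prmt1, -1.39 for Hipk2 and -0.93 for Tle2. The filter likewise fixed the direction of this difference for Tle2, and that of its lower level in the TFH cells of KO mice.

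Partners of the coreceptors in T cell receptor signalling changed with KO by at most 0.67 among those called. Of 8 listed genes 6 were tested, and 2 rose and 1 fell in KO TFH cells, beside 15.7% and 15% of all features. In those cells the kinase gene Zap70 rose by 0.42 ± 0.10 and Cd3g by 0.30 ± 0.08, and Cd3e fell by -0.52 ± 0.09. In KO non-TFH cells Cd3g rose by 0.67 ± 0.08, the 1 call among the 6 (20.3% of all features were called). In the TFH cells of WT mice 4 of them were higher and 1 was lower, and for KO mice the counts were 5 and 1, in comparisons that called 67.4% and 67.1% of all features, with Csk, the kinase that restrains Lck, lower by -1.26 and -1.43. The change with KO differed for 3 of the 6 (17.4% of all features), at 0.67 for Zap70, -0.48 for Cd3e and -0.37 for Cd3g.

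Genes of the cytotoxic program, which Runx3 promotes in CD8 T cells, moved in both directions. In KO TFH cells 2 of 15 rose and 9 fell (median -1.22), beside 15.7% and 15% of all features. The integrin gene Itgae (CD103) rose by 1.47 ± 0.27 (adjusted p 0.0015, limma) and the granzyme gene Gzmb by 1.21 ± 0.36 (adjusted p 0.026, limma), while Ifng fell by -2.14 ± 0.29 and Gzmk by -1.95 ± 0.21. In KO non-TFH cells 5 rose and 3 fell (median 0.287), beside 11.8% and 8.56% of all features. Gzmb rose by 5.15 ± 0.36 (adjusted p 1.6e-06, limma), from 0.427 to 49.8 FPKM, and Itgae by 4.92 ± 0.27 (adjusted p 2e-07, limma), from 1.25 to 66.2 FPKM. Against these, Klrd1, an NK receptor gene, fell by -3.08 ± 0.25 and the perforin gene Prf1 by -2.55 ± 0.26, from 11.8 to 1.21 FPKM. The other 3 rises were those of Klrg1 (3.17), Eomes (2.93) and Nkg7 (2.75), and the other fall was that of Crtam (-1.94).

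Between cell types 11 of these 15 were higher and 2 lower in TFH cells of WT mice, where 35.3% of all features were higher and 32.1% lower, with Ifng at 4.88 and Gzmk at 4.79, and Prf1 at -2.03 and Klrd1 at -1.51. In KO mice 5 were higher and 3 lower, where 33.5% and 33.6% of all features were, with Gzmk at 2.52 and Ifng at 2.46, and Itgae at -2.30 and Eomes at -2.17. Gzmk averaged 0.231 FPKM in WT and 0.541 in KO non-TFH cells and passed the filter through the TFH libraries alone. Its higher level in TFH cells was thus bound to be seen in either genotype and adds nothing to these counts. The change with KO differed between the cell types in 10 of the 15 (17.4% of all features), higher in TFH cells for 2 (Prf1 1.86, Klrd1 1.57) and lower for 8, among them Klrg1 at -4.18 and Gzmb at -3.94. Ifng and Gzmk are also expressed by helper cells, and NK markers, whose sums are given above, share Klrd1 and Klrg1 as genes that NK cells express.

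For each gene the 3 tested features with the most similar pattern were found by Pearson correlation of log2(FPKM + 1) over the 12 libraries. The 12 points form 4 groups, so r mainly follows the 4 group means. For Cd8b1 they were Grhl3 (r 0.978), Ephb6 (0.968) and Ptpn3 (0.967). Grhl3 was listed at 0 in all 6 WT libraries and at 42.58 to 46.63 FPKM in KO non-TFH and 13.21 to 15.18 in KO TFH libraries. For Runx3 they were Tgfbr2 (r 0.989), A130077B15Rik (0.983) and Sh2b1 (0.983), and Tgfbr2, a TGFβ receptor gene, averaged 102.4, 92.72, 64.8 and 41.21 FPKM in WT and KO non-TFH cells and then WT and KO TFH cells. For Zbtb7b they were Hmha1 (r 0.997), Bptf (0.996) and Hcls1 (0.995). For Cd8a they were Hadhb (r 0.991), Gas2l3 (0.991) and Tacc3 (0.99), and for Runx1 they were Tet1 (r 0.972), Trio (0.967) and Pdk1 (0.964). For Runx2 they were Ncoa7 (r 0.964), AA414768 (0.956) and As3mt (0.955), for Cbfb they were Spast (r 0.981), Fkbp5 (0.958) and Anp32b (0.955), and for Cd4 they were Arid5a (r 0.92), Med26 (0.905) and Cfap74 (0.88).

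The nearest tested features beside the other genes were followed as well. Rmnd5a, 9.46 kb from Cd8a, changed by 0.32 ± 0.11 in KO TFH cells (adjusted p 0.042, limma) and by 0.28 ± 0.11 in KO non-TFH cells (adjusted p 0.10, limma). Fabp1, 118 kb from Cd8b1 on the side away from Cd8a, changed by 0.78 ± 0.27 (adjusted p 0.05, limma, not passed) and -0.10 ± 0.27 (adjusted p 0.87, limma). Clic4, 30.5 kb from Runx3, rose in KO non-TFH cells by 0.81 ± 0.15 (adjusted p 0.0028, limma). D230025D16Rik, 7.2 kb from Cbfb, rose in KO non-TFH cells by 0.62 ± 0.16 (adjusted p 0.018, limma). Setd4, 757 kb from Runx1, rose in KO TFH cells by 1.01 ± 0.21 (adjusted p 0.0036, limma), and Fam96b, 529 kb from Cbfb, by 0.44 ± 0.12 (adjusted p 0.016, limma). Rcan1, Enpp4, Cdc5l, Syf2, Slc50a1 and Cks1b, the nearest tested features on the remaining sides, did not pass the test for KO against WT in either cell type.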

How the data were processed

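Libraries were strand-specific and poly(A)-selected, per the labels' protocols. The deposited FPKM values of a library stand in a Cufflinks tracking table, per the file headers. Alignment and quantification tools named in the submitters' processing notes are Cufflinks, Cuffdiff, TopHat, TopHat2, Bowtie and Bowtie2, beside cutadapt, FastQC and the build mm10, with versions and settings not given in the sources used here. The tables hold no counts. Depth (11.74 to 15.4 M fragments) and fragment equivalents were estimated from FPKM and its deposited confidence bounds. Fragment equivalents describe the width of those bounds and do not count reads. Low values such as Cd8a in WT non-TFH cells have little precision.

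Symbols with an entry of their own (22478) were features, and 800 joint features summed symbols that shared an entry. FPKM was scaled by the median ratio over the 7161 features that no library had under 1 FPKM (factors 0.8567 to 1.14). The 11112 features that reached 1 FPKM in 3 or more libraries were tested as log2(FPKM + 1) by limma 3.58.1 in R 4.3.3, with a mean per group, trend and robust moderation, and Benjamini-Hochberg adjustment over all of them. The fit was tested on simulated data. WT non-TFH replicate 1 lacks most genes of chromosomes X and Y. Chd4, Elf4, Ccl5, Clec4a4, Tyrobp and Nkg7 had 2 in place of 3 values in some groups. The fit left out missing values, so the WT non-TFH means of Chd4 and Elf4 rest on 2 libraries. Exact permutation tests went through every split of the libraries compared. These tests and other work used Python 3.11.15 with numpy 2.4.6, pandas 2.3.3 and matplotlib 3.10.9.

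The 8 genes and the lists were chosen with earlier results of these data known. Named genes were the 8, Ets1, up to 2 called genes each way per list and comparison with the largest change, the 3 features most like each gene, the nearest tested neighbours and cell type markers. Alternatives changed the pseudocount, filter, scaling, weights, moderation, replicate block and libraries.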

Additional observations from a re-analysis of the deposited data

Results flagged for a closer look

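The change of Cd4 with KO differed between the cell types, by -0.89 (log2) in TFH minus non-TFH cells, and the test of that difference passed (adjusted p 0.021, limma) but was lost in 4 of 23 alternatives. The change of Cd8b1 also differed, by -0.88 (adjusted p 0.038, limma), a smaller rise in TFH cells, and that call was lost in 12 of 23 alternatives (adjusted p up to 0.089).

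The extent of the Cd4 entry is data outside the level of the gene. It reached 12.42 kb or more past the annotated start in all 6 KO libraries and at most 0.02 kb in the WT libraries. The source of the upstream reads was not tested.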

How the results depend on the processing

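In the tests of single genes, 406 alternative values kept direction and side of the threshold, 25 lost the call, 9 gained one and 6 changed sign, and of those leaving out 1 library 437, 36, 5 and 2 did so. Leaving out a library outside the 2 groups compared cannot move the log2 change, nor can another filter, moderation or replicate block. The direction was thus fixed in advance for part of these totals. The number of the 8 genes called for KO against WT in non-TFH cells was 3 and became 6 with the 2 groups fitted alone and 6 with array weights, while the calls over all features went from 2258 to 3892 and 4163. In TFH cells the groups fitted alone gave 4 in place of 6, with 2163 in place of 3415 calls over all features, so which cell type had more calls depends on that choice. For the difference between cell types it was 2 and became 1 with a pseudocount of 0.1, 1 with no filter, 0 with array weights and 1 with a replicate block within genotype. Leaving out 1 library gave 6 to 7 genes in TFH cells, 2 to 4 in non-TFH cells, 5 to 6 between WT cell types, 5 to 7 between KO cell types and 0 to 2 for the difference (0 without KO non-TFH replicate 2). The Runx3 to Zbtb7b difference with KO in TFH cells ran from -0.262 to 0.245, changing sign without KO TFH replicate 3 and without WT TFH replicate 2 or 3. The Runx3 share difference in non-TFH cells ran from -0.524 to 3.84, changing sign without KO non-TFH replicate 1 or 3.

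Changes of sign, of values that mostly were not called, were those between WT cell types with quantile normalization for Cd4 (-0.44) and Runx2 (-0.20), and between KO cell types for Runx1 without scaling (0.02) and for Runx2 with upper-quartile scaling (-0.02), without KO non-TFH replicate 3 (-0.01) and without KO TFH replicate 1 (-0.06, in a range of -0.06 to 0.11 over the libraries left out). In the difference between cell types they were Cd8a with a pseudocount of 0.1 (-0.05) and Runx2 with quantile normalization (0.21). Of these, Cd4 passed the test at -0.44 (adjusted p 0.017, limma), and it passed at 0.44 without scaling (adjusted p 0.035, limma).

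Same-numbered deviations correlated at -0.0336 to 0.0334 between the cell types of a genotype. Between the genotypes, which cannot share a mouse, they correlated at 0.00251 to 0.059. Correlations this low, from so few libraries, cannot tell whether same-numbered libraries share a mouse, so pairing by replicate number was not decided. With the replicate number as a block over both genotypes, Cd8b1 between WT cell types (-0.45, adjusted p 0.053 from limma) and Runx1 between KO cell types (-0.26, adjusted p 0.067) lost their call, as did the Cd4 difference with the block within genotype (adjusted p 0.05). A filter at 5 FPKM removed Cd8a and Runx2. Depth limits the low values of Cd8a and Runx2, and causes were not tested.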
